A study of Caenorhabditis elegans with 2 samples.

Results

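The proteasome subunit genes of Caenorhabditis elegans are the 33 protein-coding genes whose symbol begins pas-, pbs-, rpt- or rpn- followed by a digit, out of 19973 protein-coding genes on the nuclear chromosomes in Ensembl release 115. Of these, 14 encode the core particle (7 pas and 7 pbs genes) and 19 the regulatory particle (6 rpt and 13 rpn genes). They were chosen by name and not by any measured value, though with earlier results of these data known. The subunit gene dss-1 carries another symbol and is treated with the pathway genes below.

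The data are chromatin immunoprecipitation followed by sequencing (ChIP-seq) of an eGFP fusion of LIN-39, the mid-body Hox transcription factor, in whole second-stage (L2) larvae of strain OP18. That strain carries the transgene wgIs18 together with the unc-119 allele ed3. The larvae were of mixed sex, and both libraries, biological replicates 1 and 2, belong to 1 group with no second condition. Binding in few cells and weak binding in many cells cannot be told apart in whole larvae.

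The 26S proteasome degrades proteins marked with ubiquitin. Its core particle is a barrel of stacked rings, in which alpha subunits (pas genes) gate the entry and some of the beta subunits (pbs genes) carry the protease sites. The regulatory particle caps the barrel: ATPases encoded by rpt genes unfold the substrate, and rpn genes encode the scaffold, the ubiquitin receptors and the deubiquitinase. In C. elegans the factor SKN-1 is known to raise the transcription of proteasome subunit genes when the proteasome is impaired.

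For each replicate, and for both together, the authors deposited a list of 30000 candidate regions on the ce11 genome build. Region width was fixed within a list, at 330 bp for replicate 1, 300 bp for replicate 2 and 310 bp when both were combined. Regions were ranked within a list by the deposited signal value, so that rank 1 is the strongest. The authors' optimal list holds the 311 strongest regions of the list from both replicates. A gene was given every region whose summit lay within 1000 bp of the 5′ end of one of its coding transcripts, and the best rank among them describes the gene. The list length is fixed, so having a region is a matter of rank and distance and not a measure of occupancy. The sequencing depth is unknown from these files.

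Below are the sequences at the best regions of 3 subunit genes, and at cdc-48.1 for contrast. The gene rpn-3 was the only subunit gene with a region among the 311 strongest of any list, at rank 235 in replicate 1. Its window below is that of the list from both replicates, where its rank was 4156. The summit there was 144 bp upstream of rpn-3, and that of replicate 1, 209 bp upstream, is not at the window's centre. The rpn-5 region was 1 of 2 sites found in both replicates. The rpn-12 region also lies at rad-23, a gene of the same pathway, and cdc-48.1, the gene of an ATPase that hands unfolded substrates to the proteasome, had the strongest region of any pathway gene examined. Each window is 151 bp centred on the summit in the list from both replicates, read from the RefSeq WBcel235 sequence on the strand of the gene, and capitals mark a searched word on either strand. The words were GAGAGA, the Hox with Pbx word TGATNNAT, the homeodomain core TAATTA, the GATA-type word TGATAA, and TATCAT or its variant TGTCAT as the core of SKN-1 sites.
rpn-3, chrIII:8447134-8447284, plus strand: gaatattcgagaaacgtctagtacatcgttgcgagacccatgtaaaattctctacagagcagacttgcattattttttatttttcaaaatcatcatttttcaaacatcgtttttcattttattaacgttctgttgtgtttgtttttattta
rpn-5, chrII:4698529-4698679, minus strand: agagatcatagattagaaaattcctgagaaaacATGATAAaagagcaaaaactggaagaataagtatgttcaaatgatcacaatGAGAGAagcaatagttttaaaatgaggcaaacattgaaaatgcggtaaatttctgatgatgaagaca
rpn-12, chrII:11652487-11652637, plus strand: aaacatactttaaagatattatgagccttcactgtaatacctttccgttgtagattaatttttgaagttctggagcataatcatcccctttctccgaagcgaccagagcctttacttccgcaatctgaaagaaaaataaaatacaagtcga
cdc-48.1, chrII:10563486-10563636, minus strand: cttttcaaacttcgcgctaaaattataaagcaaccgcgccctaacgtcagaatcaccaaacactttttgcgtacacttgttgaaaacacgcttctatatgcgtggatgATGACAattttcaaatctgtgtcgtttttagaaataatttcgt

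In these windows rpn-3 and rpn-12 held none of the searched words. The rpn-5 window held GAGAGA, and a TGATAA that overlaps the reverse complement of TATCAT by most of its length. The cdc-48.1 window held the reverse complement of TGTCAT. Among all 12546 regions of the list from both replicates near a coding 5′ end, windows of this length held GAGAGA in 10.3%, TGATAA in 15.3% and TATCAT or TGTCAT in 17.8%. A match describes the letters and is not evidence of a bound factor.

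No proteasome subunit gene had a region on the authors' optimal list, where 0.986% of all protein-coding genes had one. None had a region among the 2000 strongest of the list from both replicates, against 4.74% of all genes. At 33 genes, those background shares correspond to few genes or none, so the counts of 0 lie near the background. Of the 33 genes, 13 (39.4%) had any of the 30000 candidate regions, against 51.4% of all genes. The strongest stood at rank 2978, at pbs-4, and the weakest at rank 29347, at rpn-6.1. The median rank of the 13 was 10893, and that of the 10271 genes with a region in the whole genome was 12519. Regions at these ranks lie far below the authors' threshold.

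**Figure D1:**
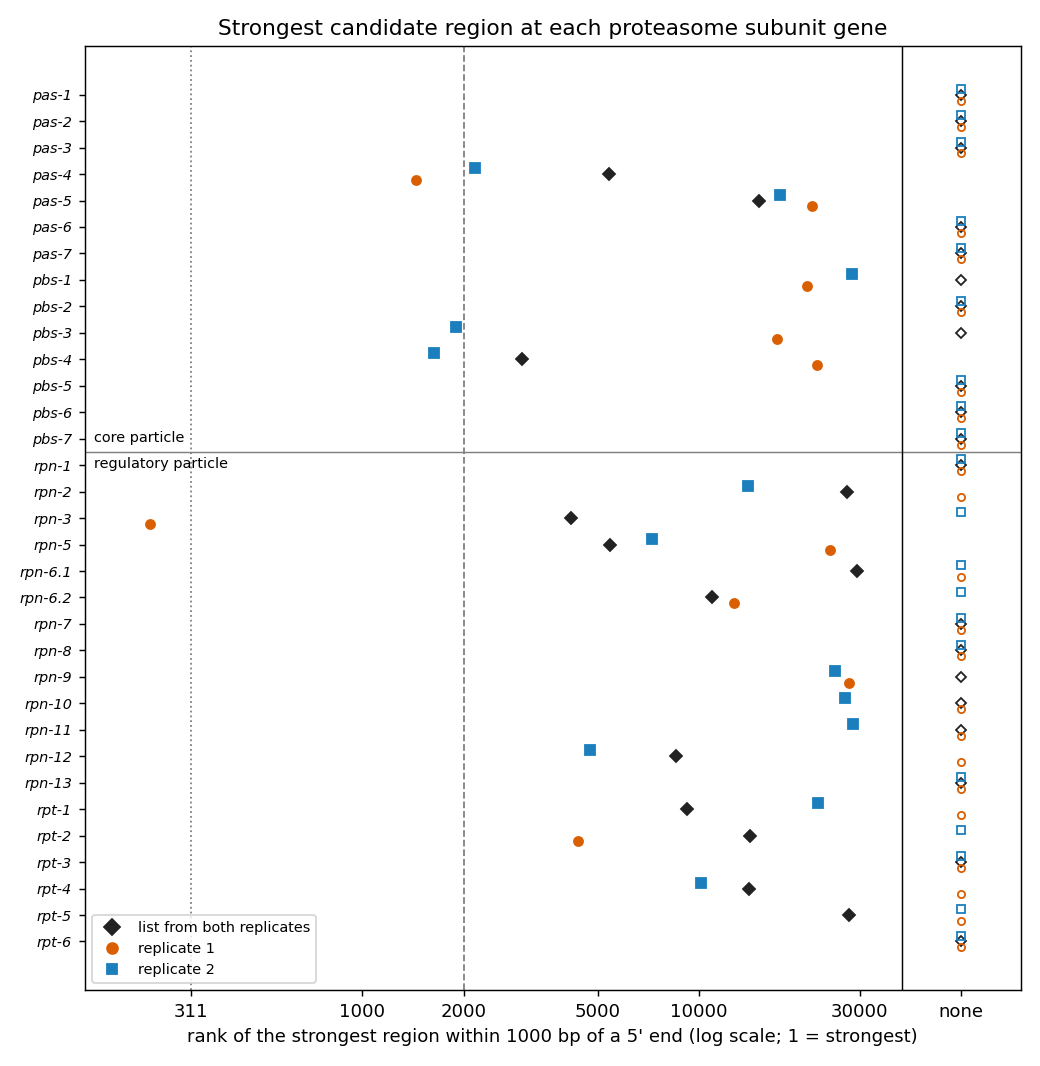
Rank of the strongest candidate region within 1000 bp of a 5′ end (log axis, 1 is strongest) for each of the 33 genes, in the list from both replicates (diamonds), replicate 1 (circles) and replicate 2 (squares); open symbols at the right mark genes with no region, the dotted line rank 311 and the dashed line rank 2000. Only rpn-3 in replicate 1 lies left of the dotted line, and 15 genes are at "none" in every list.

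The replicates gave similar totals but mostly at different places. In replicate 1, 10 of the 33 genes had a region (30.3%; all genes 51.1%), and in replicate 2, 13 (39.4%; all genes 51.6%). A region in each replicate's list was found for 7 genes (21.2%; all genes 32.0%). At 2 of these 7, pbs-4 and rpn-5, regions of the replicates overlapped by at least 1 bp, which is 6.06% of the 33 genes against 21.3% of all genes. At pas-4, pas-5, pbs-1, pbs-3 and rpn-9 the regions of the replicates did not overlap. No region was found in any list for 15 genes (45.5%), against 27.3% of all genes. No test was made over the members, so these shares are descriptions.

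Among the alpha subunit genes, pas-4 and pas-5 were the 2 of 7 with a region. The best region of pas-4 was at rank 5404 in the list from both replicates (chrI:8728622-8728931, signal 24.1), at rank 1448 in replicate 1 and at rank 2167 in replicate 2. The gene itself lies at chrI:8727218-8728487 on the minus strand. In replicate 1 and in the list from both the summit was upstream of pas-4, by 279 and 290 bp, and stood 2 and 13 bp from the 5′ end of its divergent neighbour rpb-3, an RNA polymerase II subunit gene. In replicate 2 the summit was 552 bp downstream of the 5′ end, in the coding sequence of pas-4. The ranks of the replicates therefore describe different sites. For pas-5 the ranks were 15078, 21665 and 17332 in the list from both, replicate 1 and replicate 2, and again the summit was upstream in replicate 1 (332 bp) and inside the gene in replicate 2 (297 bp). The genes pas-1, pas-2, pas-3, pas-6 and pas-7 had no region in any of the 3 lists.

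Of the beta subunit genes, pbs-4 had a region in all 3 lists, at 1 site. It lay at chrI:3907871-3908180 in intergenic sequence, 721 bp upstream of the gene (chrI:3908747-3909701, plus strand), with rank 2978 and a signal of 26.8 in the list from both replicates. Its rank was 1638 in replicate 2 (signal 16.2) and 22449 in replicate 1 (signal 10.1), and the summits of the replicates were 18 bp apart. The site is shared, but its standing differs widely between the replicates. The gene pbs-3 (chrII:4954480-4955427, minus strand) had rank 1898 in replicate 2 (signal 15.8), at a summit 970 bp downstream of its 5′ end that is nearer to ndx-3, and rank 17030 in replicate 1, at 101 bp upstream. It had no region in the list from both. The ranks of pbs-1 were 20929 in replicate 1 and 28398 in replicate 2, with none in the list from both, and pbs-2, pbs-5, pbs-6 and pbs-7 had no region in any list.

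Among the ATPase genes of the regulatory particle, 4 of 6 had a region in the list from both replicates, at ranks 9210 (rpt-1), 14196 (rpt-2), 14050 (rpt-4) and 27964 (rpt-5). None had a region in both replicates. The region of rpt-2, at rank 4365 in replicate 1, was absent from the list of replicate 2, and those of rpt-1 and rpt-4, at ranks 22586 and 10133 in replicate 2, were absent from the list of replicate 1. The region of rpt-5 was in neither. The genes rpt-3 and rpt-6 had no region in any list.

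Among the non-ATPase genes, rpn-3, a lid subunit gene at chrIII:8447353-8449346 on the plus strand, had the best rank of any subunit gene in any list. In replicate 1 its region stood at rank 235 (chrIII:8446979-8447308, signal 27.1), 209 bp upstream of the 5′ end. One gene of 33 is 3.03%, against 1.01% of all genes among the 311 strongest of replicate 1. In the list from both replicates its rank was 4156 (signal 25.3). In replicate 2 no region lay within 1000 bp, the nearest summit being 3052 bp away. The rank of rpn-3 thus rests on replicate 1 alone. In replicate 2 no subunit gene was among the 311 strongest, where 0.921% of all genes were. The summit lies between rpn-3 and its divergent neighbour hsp-110, a heat shock protein gene, whose 5′ end is also within 1000 bp.

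The lid subunit gene rpn-5 had a region in all 3 lists, at rank 5439 in the list from both replicates (signal 24.1), 24402 in replicate 1 and 7268 in replicate 2. The summits of the replicates were 38 bp apart, 151 and 189 bp upstream of rpn-5. The nearest 5′ end was that of the divergent gene scc-1, which encodes a cohesin subunit. For rpn-12, another lid subunit gene, the rank was 8545 in the list from both (signal 21.9) and 4750 in replicate 2, with none in replicate 1. Its summit lay in the coding sequence of rad-23, a ubiquitin shuttle gene that starts 167 bp from it on the other strand.

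The other rpn genes had weak regions or none. In the list from both replicates rpn-2, a scaffold subunit gene, had rank 27405, rpn-6.1 had rank 29347 and rpn-6.2, a second gene for the same lid subunit, had rank 10893 in an intron of its own. The genes rpn-9, rpn-10 (a ubiquitin receptor gene) and rpn-11 (the deubiquitinase gene) were absent from that list. Their best ranks in a replicate were 25330 for rpn-9, 27170 for rpn-10 and 28594 for rpn-11, all in replicate 2. The genes rpn-1, rpn-7, rpn-8 and rpn-13 had no region in any list.

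Core and regulatory particle genes had unequal shares in the list from both replicates, in an order that changed with the replicate, the rank limit and the distance. In the list from both, 3 of 14 core genes (21.4%) and 10 of 19 regulatory genes (52.6%) had any region (all genes 51.4%). In replicate 1 the counts were 5 of 14 (35.7%) and 5 of 19 (26.3%), with 51.1% of all genes. In replicate 2 they were 5 of 14 (35.7%) and 8 of 19 (42.1%), with 51.6% of all genes. Counted over all 30000 regions, the regulatory share was thus the lower in replicate 1 and the higher in replicate 2. It was also the higher in the list from both, which is derived from the same replicates. The order also changed with the rank limit. Up to rank 7500 the list from both held 2 of 14 core genes (14.3%) and 2 of 19 regulatory genes (10.5%; all genes 16.1%). Up to rank 10000 it held 2 (14.3%) and 4 (21.1%; all genes 20.9%). In replicate 2 the core share was the higher at each limit examined from 2000 to 25000. Up to rank 5000 it was 3 of 14 (21.4%) against 1 of 19 (5.26%; all genes 10.8%). Among genes with a region, the median rank in the list from both was 5404 for the core (3 genes) and 12471.5 for the regulatory particle. The order was reversed in replicate 1, at 20929 and 12664. In replicate 2 the medians were 2167 and 18263. In the 2000 strongest regions of replicate 1 there were 2 members (pas-4 and rpn-3; 6.06%, all genes 4.79%), and in those of replicate 2 there were 2 (pbs-3 and pbs-4; 6.06%, all genes 4.68%). With a distance of 2000 bp in the list from both, 10 of 14 core genes (71.4%) and 13 of 19 regulatory genes (68.4%) had a region, both near the 73.5% of all genes. All 14 core genes have 1 annotated 5′ end, and 8 of the 19 regulatory genes have several, which widens the sequence searched. Among all genes 7093 of the 14723 with 1 such end had a region, and 3178 of the 5250 with several (60.5%). Among the regulatory genes with 1 end, 5 of 11 had a region. When only the outermost 5′ end of each gene was used, the list from both again gave 3 of 14 core genes and 10 of 19 regulatory genes. Beyond these counts, the part of the number of 5′ ends in the gap was not tested.

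**Figure D2:**
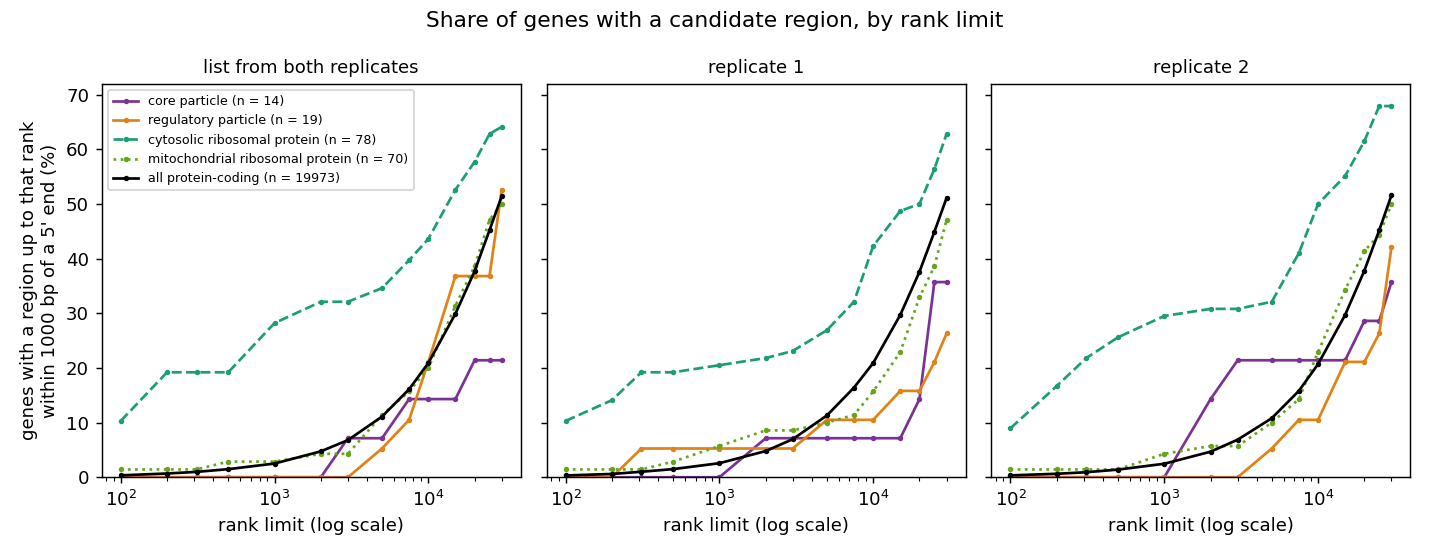
Share of genes (%, linear axis) with a region within 1000 bp of a 5′ end up to each rank limit (log axis), for core particle, regulatory particle, cytosolic and mitochondrial ribosomal protein and all protein-coding genes, 1 panel per list. At a limit of 2000 in the list from both replicates both proteasome curves are at 0 and all genes at 4.74%; the core and regulatory curves change order between panels.

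The cytosolic and mitochondrial ribosomal protein genes were set beside the proteasome genes in the same way. Of the 78 cytosolic ribosomal protein genes (rpl and rps), 25 had a region among the 2000 strongest of the list from both replicates (32.1%). Of the 70 mitochondrial ribosomal protein genes (mrpl and mrps), 3 had one (4.29%; all genes 4.74%). In replicate 1 the mitochondrial count was 6 (8.57%; all genes 4.79%) and in replicate 2 it was 4 (5.71%; all genes 4.68%). The cytosolic counts were 17 (21.8%) and 24 (30.8%). The differences between families were not tested.

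The proteasome genes lay on 5 of the 6 nuclear chromosomes, with 10 on I, 7 on II, 8 on III, 3 on IV, 5 on V and 0 on X. In the same order these chromosomes hold 14.4%, 17.3%, 13.2%, 16.4%, 25.0% and 13.7% of all genes. None of the 3 genes on IV had a region in the list from both replicates, against 51.4% of all genes on any chromosome having one. No region was near 2 members. Where a member had a region in that list, the summit was upstream of its 5′ end in 11 of 13 cases (84.6%), against 51.8% of the genes with a region genome-wide. In replicate 1 this was 8 of 10 (80.0%, all genes 53.3%) and in replicate 2 it was 7 of 13 (53.8%, all genes 49.4%), so the upstream share did not hold in replicate 2. In the list from both replicates the distance from summit to the nearest 5′ end of the gene ran from 144 to 951 bp, with a median of 377 bp. By this measure rpn-6.1 counts as upstream of an internal 5′ end. Its summit, in an intron of the gene, was 302 bp upstream of that end and 759 bp downstream of the outermost one.

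Many of these genes share their upstream sequence with a neighbour. An opposite-strand coding gene starts within 1000 bp upstream of 21 of the 33 (63.6%), compared with 18.2% of all genes, 60.3% of the cytosolic and 40.0% of the mitochondrial ribosomal protein genes. A same-strand gene ends within 500 bp upstream of 8 (24.2%; all genes 18.1%), an arrangement found in operons, which the annotation used here does not mark. In the list from both replicates 1 of these 8 had a region (rpn-6.2) and 12 of the other 25 did. Genome-wide the shares with and without such a gene upstream were 50.1% and 51.7%. For 4 of the 13 genes with a region, pas-4, rpn-5, rpn-12 and rpt-2, the nearest 5′ end belonged to another gene, and an assigned region can therefore belong to either gene of a pair.

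Words of known factors were counted within 100 bp of the 13 summits of the list from both replicates, on both strands. TGATNNAT was at 4 of 13, against 16.6% of regions near any 5′ end, and TAATTA at 4 of 13, against 9.29%. GAGAGA was at 2 (all regions 13.4%), TGATAA at 2 (19.7%), and the SKN-1 core at 4 (22.6%). In replicate 2, TAATTA was at 1 of 13 summits (7.69%, all regions 8.11%) and TGATNNAT at 2 (15.4%, all regions 16.2%). TGATAA was at 4 there (30.8%, all regions 19.0%). In replicate 1, TAATTA was at 2 of 10 summits (20.0%, all regions 10.4%) and TGATNNAT at 3 (30.0%, all regions 17.1%). Counts this small are descriptions only.

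In promoters, taken as 250 bp before to 50 bp after the outermost 5′ end, the SKN-1 core was in 15 of 33 (45.5%), against 32.3% of all genes. It was in 10 of 19 regulatory and 5 of 14 core promoters. TGATNNAT was in 7 regulatory promoters (rpn-2, rpn-6.1, rpn-8, rpn-10, rpt-1, rpt-3 and rpt-4) and in 0 core promoters. That is 21.2% of the 33, near the 23.6% of all genes. TAATTA was in 8 promoters (24.2%, all genes 15.5%), with the higher share in the core, at 5 of 14 against 3 of 19 regulatory. TGATAA was in 10 (30.3%, all genes 30.2%), of which 2 were core and 8 regulatory. GAGAGA was in 6 (18.2%, all genes 21.8%), of which 3 were core and 3 regulatory. The median GC content was 34.3% in the members and in all genes. Of the 7 regulatory genes with TGATNNAT in the promoter, rpn-8 and rpt-3 had no region in any list. That is near the share without one among regulatory genes (31.6%) and all genes (27.3%).

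Strong regions lay outside the 1000 bp of some members, at counts near the shares of all genes. Within 5000 bp, a distance chosen after the data were seen, 7 of the 33 genes had a region among the 2000 strongest of the list from both replicates (all genes 17.5%) and 1, rpn-8, had an optimal peak (all genes 3.13%). That peak stood at rank 54 (chrI:4172073-4172382, signal 76.5), and regions of ranks 23 and 60 in replicates 1 and 2 overlapped it. Their summits differed, at -3136 bp from the 5′ end in replicate 1 and -2910 bp in replicate 2 (negative is upstream). The replicate 2 summit was nearer to other regions, of rank 566 in replicate 1 (-2928 bp) and rank 4888 in the list from both (-2874 bp). The peak of rank 54 lay 3091 bp upstream of rpn-8, a lid subunit gene, and 639 bp from egg-5. The nearest to the limit was at pas-6, whose region at rank 605 (signal 36.0) had ranks 1236 and 1375 in the replicates. Its summit was 1231 bp downstream of the 5′ end, past the end of the gene, and no other coding 5′ end was nearer. Just inside the limit, rpt-5 had its region at 951 bp, and just outside it the nearest summit of pbs-5 was at 1121 bp. The others of the 7 were rpt-2 (rank 540), rpn-13 (572), pbs-3 (741), pbs-6 (1010) and rpt-1 (1554), at 2337 to 4827 bp. Each of these 5 summits was nearer to the 5′ end of another gene. The regions at rpn-13 and rpt-1 overlapped replicate 1 regions of rank 337 and 259 and no region of replicate 2. Those at rpt-2, pbs-3 and pbs-6 overlapped regions of both, at ranks 1184 and 10074, 2269 and 2648, and 5444 and 971 in replicates 1 and 2.

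**Figure D3:**
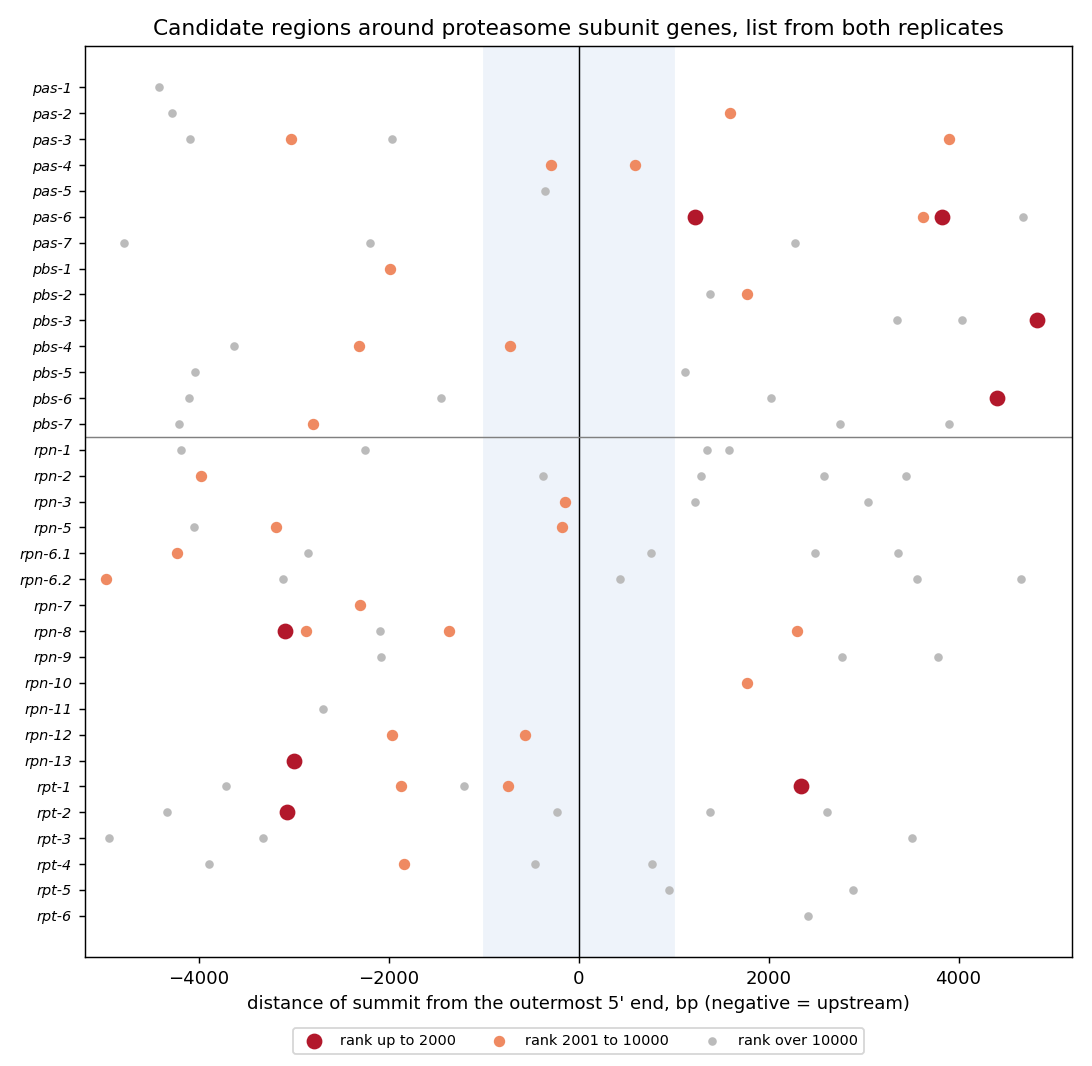
Summits of the list from both replicates around each gene, by distance from the outermost 5′ end (bp, linear axis, negative is upstream); large red points have rank 2000 or better, orange points ranks to 10000 and small grey points lower ranks, and the shaded band marks 1000 bp on each side. No point of rank 2000 or better lies in the band, while 7 genes have one outside it (within 5000 bp, all genes 17.5%).

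The pathway around the proteasome was described by 23 genes for shuttles, ubiquitin enzymes, deubiquitinases, the CDC-48 complex and the SKN-1 response, a list drawn up with earlier results on cdc-48.1 known. Any region in the list from both replicates was found for 12 of 23 (52.2%), which is near the 51.4% of all genes. Among its 2000 strongest were 5 (21.7%; all genes 4.74%). In replicate 1 that count was 4 (17.4%; all genes 4.79%) and in replicate 2 it was 2 (8.70%; all genes 4.68%). The gene cdc-48.1 had rank 4 in the list from both replicates (signal 141), rank 5 in replicate 1 and rank 22 in replicate 2, 154 bp upstream of its 5′ end. The ubiquilin gene ubql-1, which encodes a ubiquitin shuttle, had rank 189 (signal 48.7), with 352 and 284 in the replicates at summits 1 bp apart.

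The other 3 stood lower. The gene skn-1 had rank 1594 in the list from both replicates, wdr-23, which encodes a repressor of SKN-1, had rank 1646, and ufd-2, a ubiquitin chain elongation factor gene, had rank 1903. In replicate 2 their ranks were 3336, 24528 and 7727, so none of these 3 was among its 2000 strongest. The skn-1 region of rank 1594 lay in the coding sequence of skn-1, 128 bp upstream of an internal 5′ end. The 5′ end of clec-178 was also within 1000 bp. The replicate 1 region that overlapped the replicate 2 region of rank 3336 had rank 20088. The skn-1 region of rank 1426 in replicate 1 was at another site, in an intron. Only 11 of the 23 genes have a single 5′ end. The subunit gene dss-1 had no region in any list, and neither had npl-4.1, npl-4.2, psme-3, ddi-1 and ubq-1. The last, a polyubiquitin gene, had an optimal peak at rank 90, 2124 bp upstream.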

How the data were processed

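The ChIP-seq region lists of 2 replicates were used as deposited. Per the deposited text files, the authors derived each candidate list from the alignments of its replicate or of both replicates, together with 1 further file common to all lists whose kind is not stated there. The signal column that the authors deposited gives 1 value for each region. Aligner, caller and the scale of this value: not given in the sources used here. It therefore served for ranks and values within a list alone. The score column that the authors deposited was below 0 for 19118 regions of the list from both replicates and was used only to break ties. The ce10 lists were not used, because no ce10 annotation was at hand.

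Summits were tied to the 5′ ends of coding transcripts of Ensembl release 115 (WBcel235, the ce11 coordinates; no region ended beyond a chromosome). Genes without a region were placed at rank 30001 in medians. Counts are set beside the share of all 19973 genes with the same property, and no test over members was made. The search was tested on simulated regions. Alternatives were each replicate's list alone, other distances (500, 2000 and 5000 bp), 1000 bp upstream to 200 bp downstream, the nearest or the outermost 5′ end only, and a word window of 50 bp. Every member is named; those among the 2000 strongest of a list have full values. Members, lists and words were chosen with earlier results of these data known. Python 3.11.15, NumPy 2.4.6, SciPy 1.17.1 and matplotlib 3.10.9 were used.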

Additional observations from a re-analysis of the deposited data

How the results depend on the processing

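Depth is unknown and the lists have a fixed length. The absence of a region means only that none of the 30000 had a summit within the distance searched. Regions past that rank, and stronger ones farther away such as those at rpn-8 and pas-6, are not counted. In the replicates' lists taken alone, 0 to 1 members were among the 311 strongest, 2 to 2 among the 2000 strongest, 5 to 5 core and 5 to 8 regulatory genes had any region, and both medians were at 30001 to 30001, meaning no region. Against 0 members in the main setting, a distance of 2000 bp put 1 gene, pas-6, among the 2000 strongest (all genes 8.48%). A distance of 5000 bp, chosen after the data were seen, put 1 on the optimal list (all genes 3.13%) and 7 among the 2000 strongest (all genes 17.5%). Any region was then found for 23 genes at 2000 bp (all genes 73.5%) and for 33 at 5000 bp (all genes 93.8%), with 10 core genes at 2000 bp and medians of 18317.5 (core) and 13794 (regulatory). Those are wider searches by construction. The regulatory median of 29347 became 30001 at 500 bp, with 1000 bp upstream to 200 bp downstream, and with regions given only to the nearest 5′ end; it rests on 1 gene, rpn-6.1. Over the replicates TGATNNAT was at 15.4 to 30.0% of member summits, TAATTA at 7.69 to 20.0%, TGATAA at 20.0 to 30.8%, GAGAGA at 7.69 to 20.0% and TATCAT or TGTCAT at 23.1 to 30.0%; the last was at 23.1% within 50 bp. The cause of these shifts was not tested. No paired analysis was possible because the samples form 1 group.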

Other observations

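Summits per gene were counted in steps from the outermost 5′ end in the list from both replicates. In the 1000 bp upstream, the 33 proteasome genes had 0.303 summits per gene, against 0.307 for all genes. In the 1000 bp downstream they had 0.152, against 0.293. The downstream value was 0.0606 in replicate 1 (all genes 0.282) and 0.242 in replicate 2 (all genes 0.303). From 1001 to 2000 bp downstream the members had 0.333 and all genes 0.307. These are 5 summits at 5 genes in the first 1000 bp downstream, and no test was made.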
